A study of Mus musculus and Bos taurus with 2 samples.

Results

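The genes described here write, remove and read N6-methyladenosine (m6A), a methyl mark on adenosines of messenger RNA. They were Mettl3, Mettl14, Wtap, Alkbh5, Ythdf1, Ythdf2, Ythdf3, Ythdc1, Ythdc2 and Igf2bp2. Members were the transcript models that carried one of these gene names, in any letter case, and lay on the gene's own strand in one of 7 relations to a reference transcript: the same intron chain, contained in it, containing it, with retained introns (2 classes), sharing at least one junction, or another exonic overlap. By this rule 9 of the 10 genes had a model in each library, with 29 of 31354 sense models in mouse and 47 of 33163 in bovine. Ythdc2 had none in either species.

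The study used long nanopore reads of PCR-amplified cDNA, made from polyadenylated RNA of embryos around genome activation. The mouse library came from Slc:ICR oocytes of superovulated females, fertilized in vitro and grown in KSOM medium to the late 2-cell stage, 36 h after insemination. For the bovine library, the oocyte donors were Japanese Black cattle or F1 crosses of Japanese Black × Holstein, the oocytes were matured in vitro and fertilized with sperm of a Japanese Black bull, and 8-cell to 16-cell embryos were taken at 72 h. Each library pooled about 200 embryos, was amplified with 14 PCR cycles, had a flow cell of its own and belonged to batch 1. There was 1 library per species and the models carry no read count, so no value below has a replicate error or a test. Species, stage, hours, and reference annotation differed together and cannot be told apart. Where no model carries a gene's name, this does not show that the gene was silent. The labelled stages were set beside the names of known marker genes. The lists were chosen with earlier results of these data known, so this is not an independent check. All 9 markers of the mouse 2-cell stage had a model in the mouse library and 0 had one by name in the bovine library. Of 7 bovine activation markers, 6 had one in the bovine library and 3 in the mouse library. Markers were matched by name, so genes absent from a species or named otherwise there count as without a model. These lists thus cannot tell a stage from a species. The oocyte markers, 7 of 7 in both, do not tell the stages apart either. Markers of other cells were also assembled, in mouse and bovine respectively 2 and 4 of 8 for cumulus and granulosa cells, 2 and 4 of 7 for sperm, and 3 and 3 of 6 for blood and immune cells. For cumulus and granulosa cells these were Tnfaip6 and Fshr in mouse, and Has2, Tnfaip6, Vcan and Foxl2 in bovine. For sperm they were Prm2 and Tnp1 in mouse, and Tnp1, Tnp2, Odf1 and Acrv1 in bovine. For blood and immune cells they were Cd74, Lyz2 and C1qa in mouse, and Ptprc, Cd3e and Hbb in bovine. The cumulus and granulosa genes Ptx3, Cyp19a1 and Amh and the sperm genes Prm1 and Akap4 had no model in either library. The part of such cells in the results was not tested.

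In the cell, a complex around METTL3 and METTL14 places the methyl group, with WTAP as the adaptor that holds the complex on nuclear RNA, and ALKBH5 takes it off again. YTHDF1, YTHDF2 and YTHDF3 bind marked transcripts in the cytoplasm, YTHDC1 binds them in the nucleus and acts in splicing and in the export of RNA, YTHDC2 is a helicase of germ cells, and IGF2BP2 is known to stabilize its targets. In oocytes and early embryos this pathway is known for its part in the clearance of maternal messenger RNA.

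Of the 21923 protein-coding gene symbols of the mouse annotation, 52.3% had a model in the mouse library and 48.8% in the bovine one. The members had one for 9 of 10 in each. The bovine share matches mouse symbols by name, so genes absent from bovine or named otherwise there count as without a model. It is thus a low baseline for the members. Mettl3, Ythdf3 and Ythdc1 had 5 mouse models each, Wtap and Igf2bp2 had 4, Mettl14 and Alkbh5 had 2, and Ythdf1 and Ythdf2 had 1. In bovine YTHDF3 had 20 models, YTHDC1 had 7, WTAP had 6, METTL14 had 4, IGF2BP2 had 3, METTL3, ALKBH5 and YTHDF2 had 2 each, and YTHDF1 had 1. Members with at least 2 models numbered 7 in mouse, where 51.2% of all named genes with a model had as many, and 8 in bovine, where 57.9% had. At least 5 models were found for 3 members in mouse, beside 9.96% of all named genes, and for 3 in bovine, beside 13.0%. The bovine count of YTHDF3 stood apart, since only 7 genes of that library, 0.0523% of the named ones, had 20 or more.

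**Figure D1:**
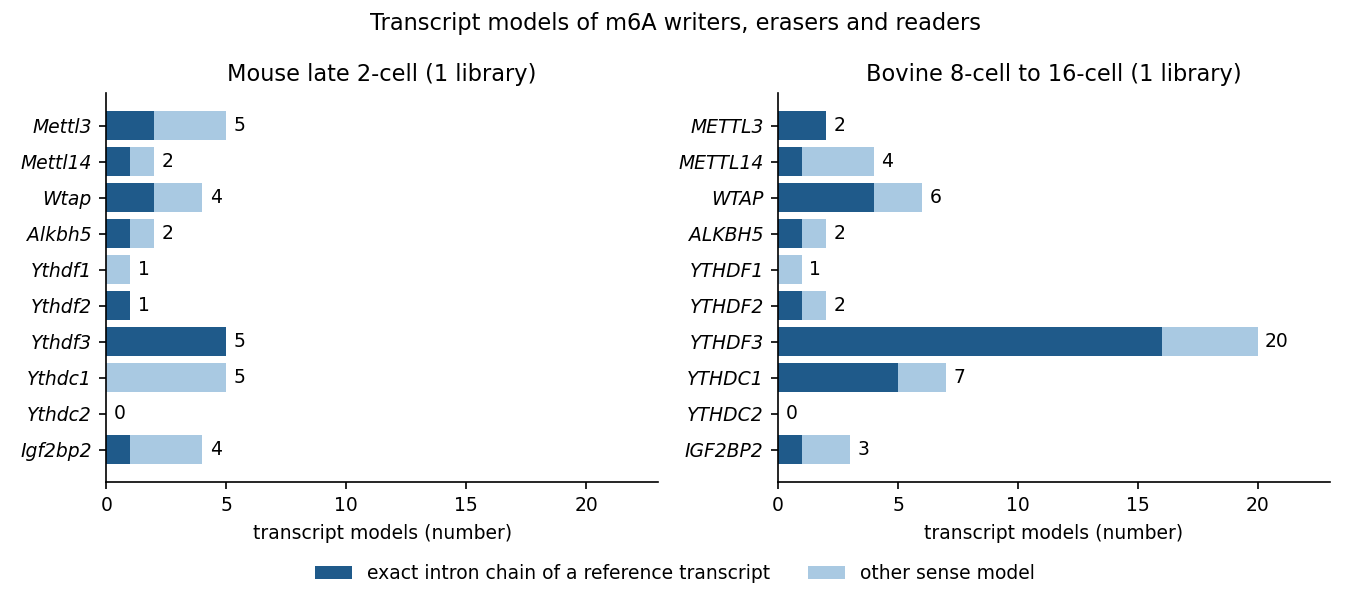
Transcript models of each gene in the mouse and bovine library (number, 1 library each), divided into models with the intron chain of a reference transcript (dark) and other sense models (light). YTHDF3 reaches 20 models in bovine and 5 in mouse, and Ythdc1 has no dark part in mouse.

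The intron chain of a reference transcript was matched exactly by 13 of the 29 mouse models (44.8%, exact Clopper-Pearson 95% interval 26.4% to 64.3%) and by 31 of the 47 bovine models (66.0%, 50.7% to 79.1%). Over all sense models of named genes the shares were 55.4% in mouse and 44.0% in bovine. The mouse interval holds the share of its library, and the bovine interval lies above it, but without YTHDF3 the bovine share was 55.6% (15 of 27, 35.3% to 74.5%), an interval that holds the library's share. Without Ythdf3 the mouse share was 33.3% (8 of 24, 15.6% to 55.3%), and this interval ends just under the library's share. Models of one gene are not independent draws, and the intervals cover counting error only. An exact match was found for 7 members in mouse, where 72.5% of named genes had one, and for 8 in bovine, where 65.5% had.

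The mouse models of the writers were examined against the annotated proteins, and 2 of these genes had models that leave out a coding exon. METTL3 is the catalytic subunit. Of its 5 mouse models, on the minus strand of chromosome 14, 3 lacked coding exon 4, which is 176 bp long and lies at chr14:52298640-52298815 in mm10. Of the Mettl14 models, on the minus strand of chromosome 3, 1 of 2 lacked coding exon 10, 211 bp long, at chr3:123371275-123371485. These exons are shown because their lengths are not multiples of 3, so that leaving them out shifts the reading frame. The sequences were taken from GENCODE M21 transcripts (GRCm38, the assembly of mm10), 5′ to 3′ along the gene. Capitals mark the skipped exon, and the small letters on either side are the ends of its neighbours.
Mettl3 exon 4: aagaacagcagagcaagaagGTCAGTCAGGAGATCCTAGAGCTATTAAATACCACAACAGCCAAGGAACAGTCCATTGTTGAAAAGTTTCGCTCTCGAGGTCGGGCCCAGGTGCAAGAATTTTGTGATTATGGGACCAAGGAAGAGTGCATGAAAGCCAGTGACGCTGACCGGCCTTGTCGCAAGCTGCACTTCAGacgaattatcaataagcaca
Mettl14 exon 10: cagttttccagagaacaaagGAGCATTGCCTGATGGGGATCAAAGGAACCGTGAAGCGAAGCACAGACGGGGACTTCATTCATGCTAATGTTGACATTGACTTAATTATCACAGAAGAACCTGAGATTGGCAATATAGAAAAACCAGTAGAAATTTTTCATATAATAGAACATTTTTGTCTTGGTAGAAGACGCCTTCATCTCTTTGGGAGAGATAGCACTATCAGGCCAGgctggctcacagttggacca
In the skipping models the 2 neighbours are joined directly. Capitals now mark the first 20 bases after the new junction.
Mettl3 exon 3 to exon 5: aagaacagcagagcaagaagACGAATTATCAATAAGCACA
Mettl14 exon 9 to exon 11: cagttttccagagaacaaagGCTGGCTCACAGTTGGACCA

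All 5 Mettl3 models began within 32 bases of the outermost annotated start, 1 of them at 52305124 and the others at 52305096. They shared their last base, so their other differences lay inside the gene. Model 1 (models are numbered from the outermost start) matched the annotated chain and read the whole protein of 580 codons. The 3 models without exon 4 read 245 codons from the same start codon, a number equal to 42.2% of the annotated codons. Those read after the new junction are out of frame and are not codons of the protein. The stop codon lay in exon 4 of the model (exon 5 of the gene), 765, 717 and 529 bases upstream of the last junction. The junction from exon 3 to exon 5 is held by 3 annotated transcripts of the gene, of which 2 are annotated as targets of nonsense-mediated decay and 1 as a retained intron, and by none annotated as coding. Model 5 lacked exon 6 as well (188 bp, chr14:52297471-52297658). Model 3 kept the intron of 82 bp after exon 8, and its acceptor of exon 8 lay 34 bases later. Model 2 matched a predicted reference transcript exactly, yet its donor of exon 1 lay 5 bases further, and from the annotated start codon it read 36 codons. Thus 1 of the 5 mouse Mettl3 models held the whole annotated protein. In bovine, METTL3 on chromosome 10 had 2 models and both were exact matches. Exon 4 was present in both, and 1 of them lacked exon 10 (113 bp). The 9 internal exons had the same lengths in the same order in the 2 species, exons 4 and 6 among them.

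METTL14 is the partner that supports RNA binding. The mouse model with exon 10 read all 456 codons. The one without it read 314 codons, a number equal to 68.9% of the annotated codons, and met a stop codon in its last exon. Here too the codons after the new junction are out of frame and are not codons of the protein. The junction from exon 9 to exon 11 is in no GENCODE transcript of the gene. Both mouse models began 118 bases inside the outermost annotated start. In bovine, on the minus strand of chromosome 6, all 4 METTL14 models held exon 10, which is 211 bp long there too. They differed at other places. An extra exon of 83 bp at 6648060 to 6648142 (bosTau9) lay between exons 10 and 11 in 2 of the 4, and 2 of the 4 began in another first exon of 235 bp (6678706 to 6678940), which starts 238 bases downstream of the exact match. One model held both differences. All 9 internal exons of the exact matches agreed in length between the species.

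WTAP varied mainly at its start. In mouse, on the minus strand of chromosome 17, its 4 models began in 3 first exons, at 12994224 for 2 models, at 12992543 and at 12992259. The outermost start lay 55 bases upstream of the outermost annotated one, and the others 1.63 kb and 1.91 kb downstream of that annotated start. The start codon lies further downstream, and 3 of the 4 models read the same 396 codons whichever first exon they used. Model 1 carried an extra exon of 74 bp at 12984778 to 12984851 after the first 10 codons, whose sequence was not used here. Bovine WTAP, on chromosome 9, had 6 models from 4 starts, at 95996643, 95996793, 95997044 and 95999064. Of these, 2 ended at 96016542 in a last exon of 1224 bp that extends exon 6, without exons 7 and 8, and 1 lacked exon 4 (59 bp). The 6 internal exons of the long form had the same lengths in both species.

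**Figure D2:**
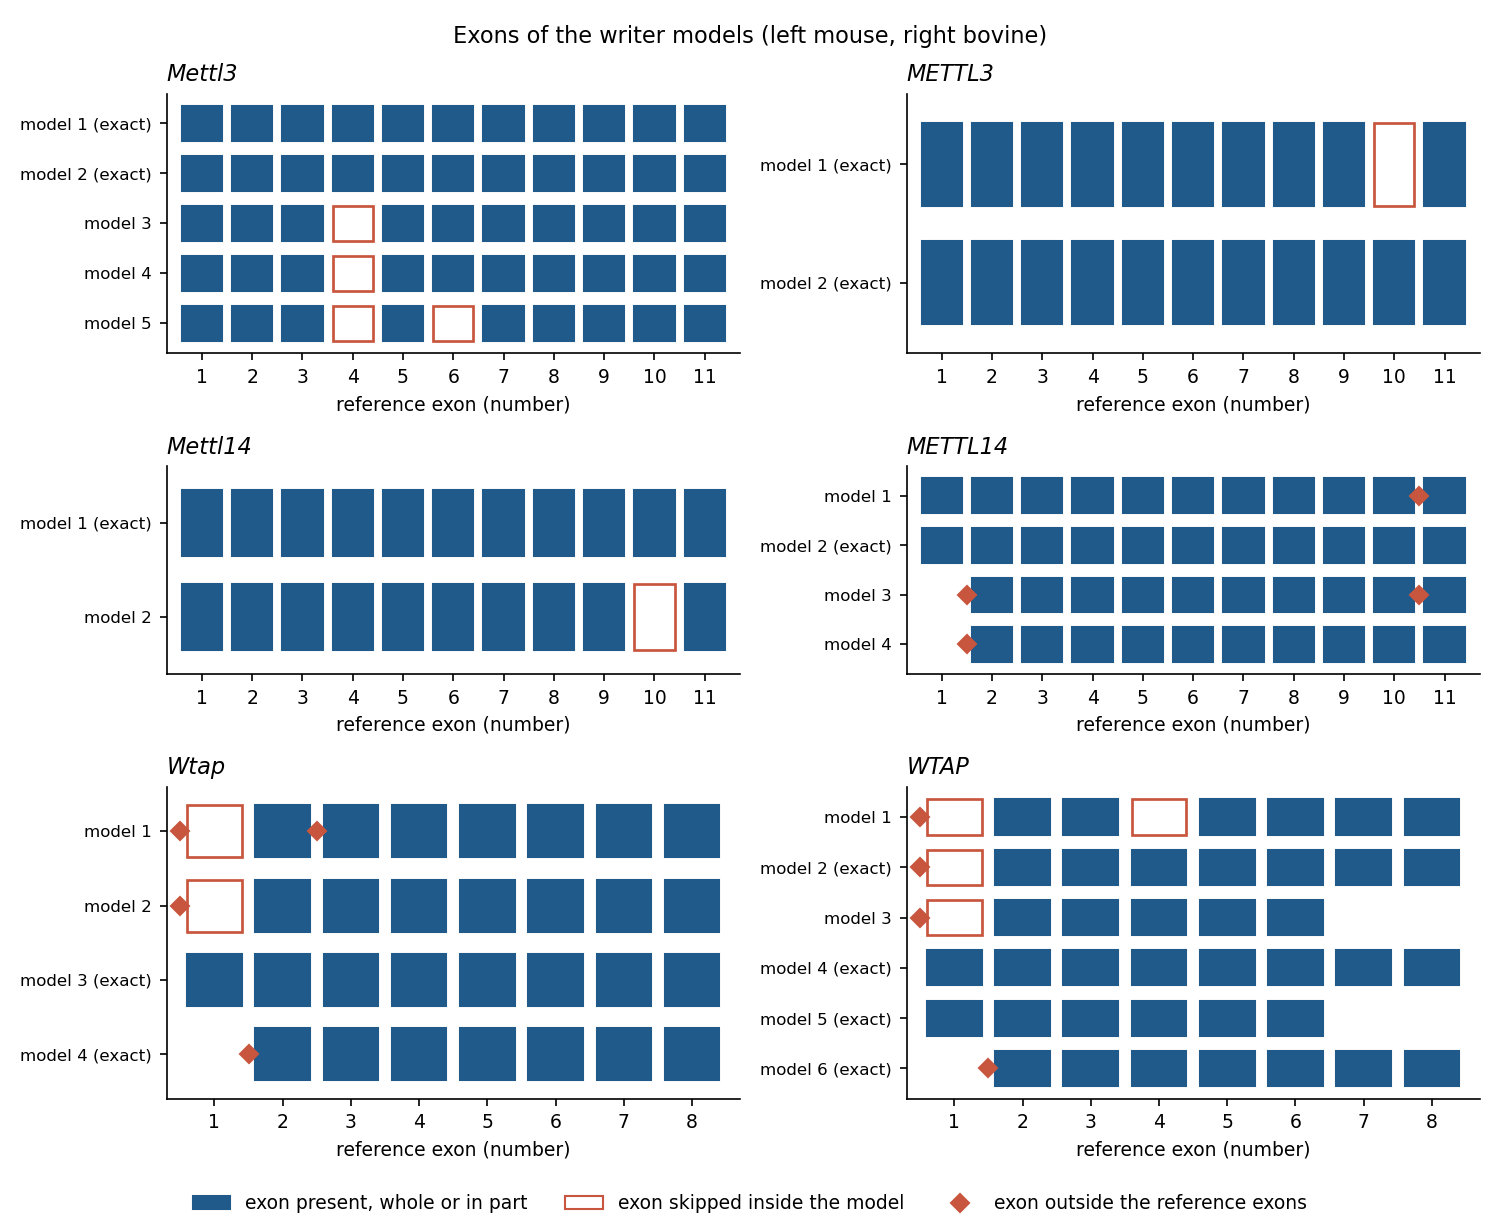
Exons of each model of Mettl3, Mettl14 and Wtap (rows) against the exons of the reference transcript (number along the gene), mouse on the left and bovine on the right, with filled boxes for exons present, open boxes for exons skipped inside a model and diamonds for exons elsewhere in the gene. Mettl3 exon 4 is open in 3 of 5 mouse rows and filled in both bovine rows.

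ALKBH5, the demethylase, was in 2 models in each species, and neither mouse model held the start codon. Mouse model 1, on the plus strand of chromosome 11, had the annotated 4-exon chain but began at 60538546, 123 bases past the start codon. The annotated transcript of this chain starts at 60537978, and the outermost annotated start of the gene lies 2.17 kb upstream of the model. The model held 89.6% of the coding bases of the 395-codon protein. It ended at 60555908. Model 2, a single exon of 2604 bp, began at the next base, 60555909, and ran to the annotated end at 60558512, so the 2 models divided the last exon without overlap. Bovine ALKBH5, on the minus strand of chromosome 19, had an exact 4-exon match of 2625 bp and a 5-exon model in which an intron was spliced out of exon 1, leaving a first piece of 219 bp. The other known eraser gene, Fto, had 1 model in mouse, an exact match, and 5 in bovine, 1 of them exact.

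The cytoplasmic readers YTHDF1, YTHDF2 and YTHDF3 are close relatives, each with one long coding exon, and they differed widely in the number of models. YTHDF1 had 1 model per library and no exact match in either. The mouse model, on the minus strand of chromosome 2, had 2 exons, began with the whole long exon of 1521 bp, 8.74 kb downstream of the annotated start, and held 87.9% of the coding bases. Bovine YTHDF1 had 3 exons of 74, 588 and 1277 bp on chromosome 13. YTHDF2, known for sending marked transcripts to decay, had a single mouse model on the minus strand of chromosome 4. This model matched the annotation, began 47 bases inside the outermost annotated start and read all 579 codons. Bovine YTHDF2, on chromosome 2, had an exact match with the long exon of 1587 bp and a second model in which 1367 of these bases were removed by an earlier donor, leaving 220 bp, in a transcript that began 910 bases further upstream.

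All 5 mouse models of Ythdf3, on the plus strand of chromosome 3, were exact matches to 5 reference transcripts. They shared 1 start region, at 16183148 for model 1 and 16183165 for the other 4, and 1 end at 16217037, and differed in 3 short optional exons. Exon 4 of the annotated transcript, 33 bp long, is shown because it is the in-frame choice among them and adds 11 codons. Capitals mark it between the ends of its neighbours, at chr3:16203187-16203219, 5′ to 3′, from GENCODE M21.
Ythdf3 exon 4: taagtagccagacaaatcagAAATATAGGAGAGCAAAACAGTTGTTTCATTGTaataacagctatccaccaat
Models 1 and 3 held this exon and models 2, 4 and 5 did not. From the outer annotated start codon model 3 read 596 codons and model 4 read 585. Models 1 and 2 carried a further exon of 149 bp, with which that start codon gave 20 codons in each. A further annotated start codon at 16187055, inside the 149-bp exon, gave 600 and 589 codons in them. Model 5 lacked the 25-bp exon 2 and read 21 codons from the outer start codon. Its junction from exon 1 to exon 3 is in no GENCODE transcript, but it is in the curated reference transcript that the model matched. The coding region of that reference transcript was not used here. The whole coding chain of a protein annotated in GENCODE was held by 3 of the 5 (models 2, 3 and 4).

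Bovine YTHDF3, on chromosome 14, showed the same long exon of 1599 bp and the same 25-bp and 86-bp exons, with more optional exons around them. Its 16 exact matches fell on 16 different reference transcripts, 15 of them predicted and 1 curated, and ranged from 4735 to 5637 bp. Of all 20 models, 18 began within 100 bases of the outermost exact start, so most of them differed in internal exons and not in where they began. Exon 3 (146 bp) was present in 8 of 20 and exon 5 (45 bp) in 10 of 20. The long exon 6 was present in 17 of the 19 models that span it, exon 7 (160 bp) in 12 of 19 and exon 8 (28 bp) in 10 of 19. Other choices involved single boundaries or ends. The first exon was 108 bases shorter in 4 models. The acceptor of exon 7 lay 3 bases later in 3, and 5 models ended at 28174299 and not near 28174568. All 5 lacked exon 8 and 4 of them lacked exon 7. The reverse did not hold, since models 6 and 19 lacked both exons and ended at 28174568 and 28174571. Model 8 lacked the long exon and ended in a 520-bp exon at 28204541. The lengths of exons 5 and 6 are multiples of 3, and those of exons 3, 7 and 8 are not. Among the 30 other genes of the pathway, chosen for their role, the numbers of models most like those of Ythdf3 over the 2 libraries were found for Hnrnpa2b1 (14 and 17, summed difference 12), Cnot1 (6 and 7, 14) and Pcif1 (5 and 4, 16).

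**Figure D3:**
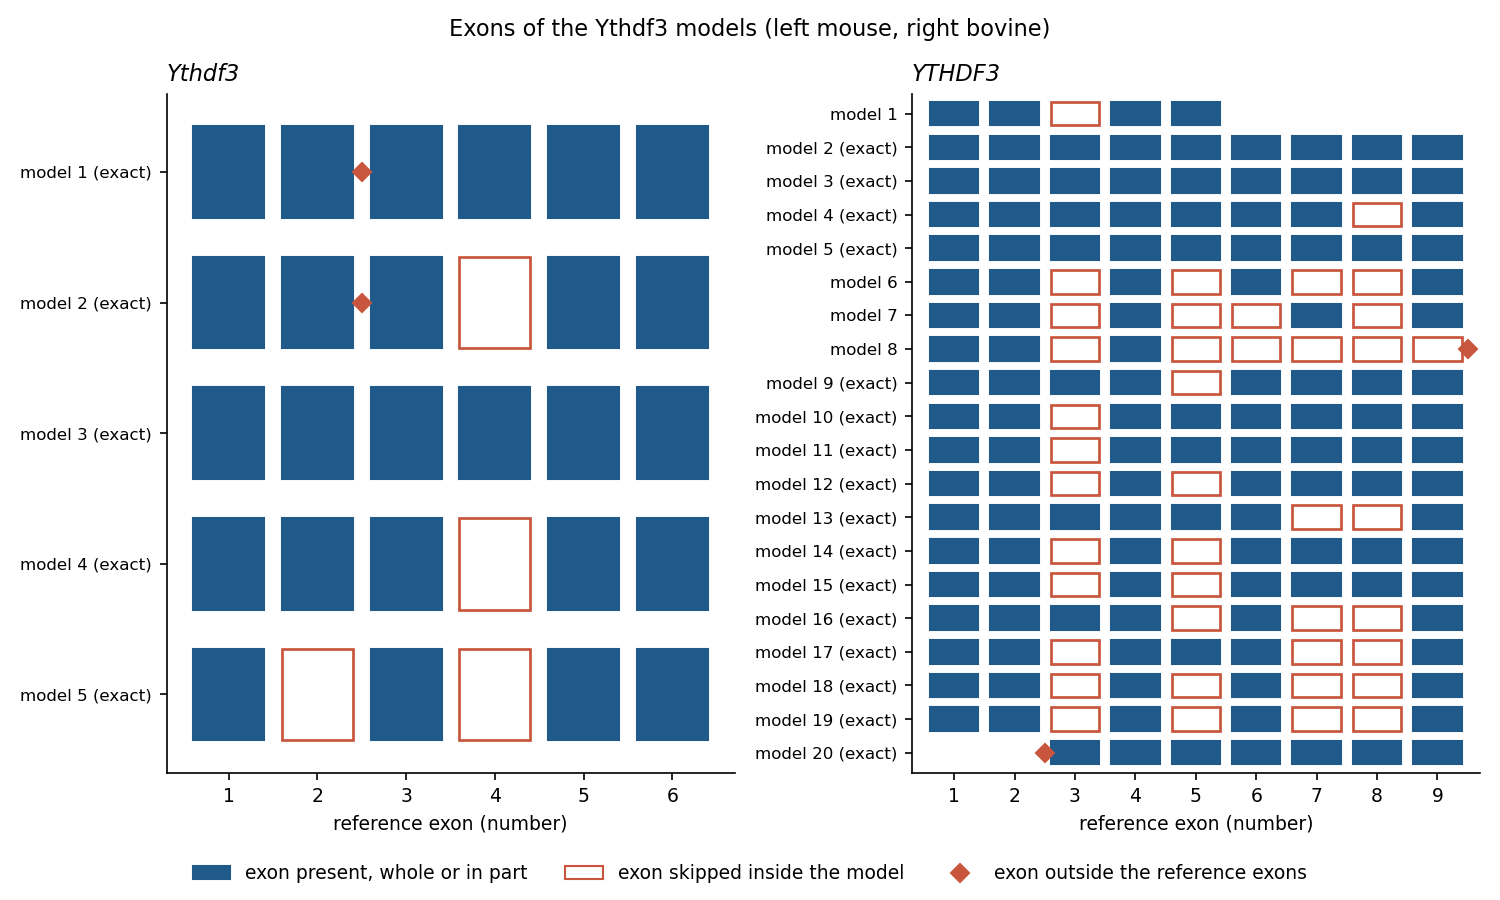
Exons of each Ythdf3 model (rows) against the exons of the reference transcript (number along the gene), mouse on the left and bovine on the right, with filled boxes for exons present, open boxes for exons skipped inside a model and diamonds for exons elsewhere in the gene. In mouse the open boxes are at exon 4 in 3 models and exon 2 in 1, and in bovine exons 3, 5, 7 and 8 are each open in some rows and filled in others.

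YTHDC1, the nuclear reader, began far inside the annotated gene in every mouse model. Most bovine models began close together. The mouse starts were measured from the annotation and the bovine ones from the library's own exact matches, since no bovine annotation was used here. The bovine distance is thus 0 by construction for the outermost exact match, and the distances of the 2 species are not comparable. In mouse, on the plus strand of chromosome 5, the 5 models began 11.4, 12.2, 17.0, 24.6 and 24.6 kb downstream of the outermost annotated start. They held 54.0%, 93.0%, 53.4%, 27.4% and 26.3% of the 2208 coding bases, and none held the start codon or matched a whole reference chain. Models 2, 3 and 5 were contained in a reference chain. All 5 ended at 86836703, just past the annotated end at 86836659. Of mouse protein-coding genes with at least 5 models, 4.99% (66 of 1322) likewise had none with an annotated start codon. Models 4 and 5 began with an annotated 626-bp exon (86828854 to 86829479), whose junction to exon 12 is held by 2 GENCODE transcripts, 1 of them annotated as processed and 1 as a target of nonsense-mediated decay. Model 1 joined exon 8 to the end of exon 17 by a junction that is in no GENCODE transcript and left out 8 exons. In bovine, on chromosome 6, 6 of the 7 models began between 102 bases upstream and 138 bases downstream of the outermost exact start, and 5 were exact matches. The other one began 32.3 kb downstream, and 2 of the other 6 lacked the 54-bp exon 6.

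The promoters of Ythdf2 and Ythdc1 are shown because mouse models began at the first of these and not at the second. The windows run from 250 to 51 bases upstream of the RefSeq start (GRCm38.p6), on the gene's strand, at chr4:132212307-132212506 and chr5:86804016-86804215. Capitals mark GGGCGG, the letters of a GC box, on either strand. Both windows were also searched on both strands for TATAAA, the letters of a TATA box, for CCAAT, those of a CCAAT box, and for CCGGAAGT, those of an ETS site, and held none of them.
Ythdf2 promoter: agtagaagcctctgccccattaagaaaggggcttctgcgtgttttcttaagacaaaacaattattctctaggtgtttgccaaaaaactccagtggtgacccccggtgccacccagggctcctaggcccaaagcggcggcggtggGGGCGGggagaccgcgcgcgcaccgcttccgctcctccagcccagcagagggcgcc
Ythdc1 promoter: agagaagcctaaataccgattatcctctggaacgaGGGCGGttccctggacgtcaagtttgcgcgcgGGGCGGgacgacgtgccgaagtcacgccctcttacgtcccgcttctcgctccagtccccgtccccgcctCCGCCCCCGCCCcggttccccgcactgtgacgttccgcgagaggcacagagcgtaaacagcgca
The Ythdf2 model began at the RefSeq start itself, and the nearest Ythdc1 model began 11377 bases from its own. RefSeq windows were found for 7 of the 10 members, 9 windows in all, of which 2 of the 3 for Wtap overlap. Of these 9, 7 held GGGCGG and 3 held CCAAT, while 24.6% and 28.4% of all 32851 windows of this length did. TATAAA and CCGGAAGT were in none, against 9.14% and 1.40% of all windows. CG dinucleotides numbered 8 to 32 per window, and the median of all windows was 4. Beside Ythdf2, models of Mettl3 and Wtap began at a RefSeq start to the base. The nearest model of Igf2bp2 began 242 bases away, and those of Alkbh5 and Ythdf1 863 and 8729 bases away. The models that began at a RefSeq start to the base were exact matches. Whether their ends were corrected towards the reference is not known.

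One choice inside Ythdc1 was made in both species. Exon 14 had 2 acceptors 24 bases apart, giving exons of 64 and 40 bp, which keep the same reading frame. The bases between them are shown in capitals, at chr5:86831773-86831796, after the end of exon 13 and before the common remainder of exon 14.
Ythdc1 exon 14: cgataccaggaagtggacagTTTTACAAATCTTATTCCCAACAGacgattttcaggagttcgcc
The longer form was in mouse models 3 and 4 and in bovine model 3, and the shorter form in mouse models 2 and 5 and in bovine models 1, 2, 4, 5 and 6. The remaining 14 of 15 internal exons had the same lengths in mouse and bovine.

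**Figure D4:**
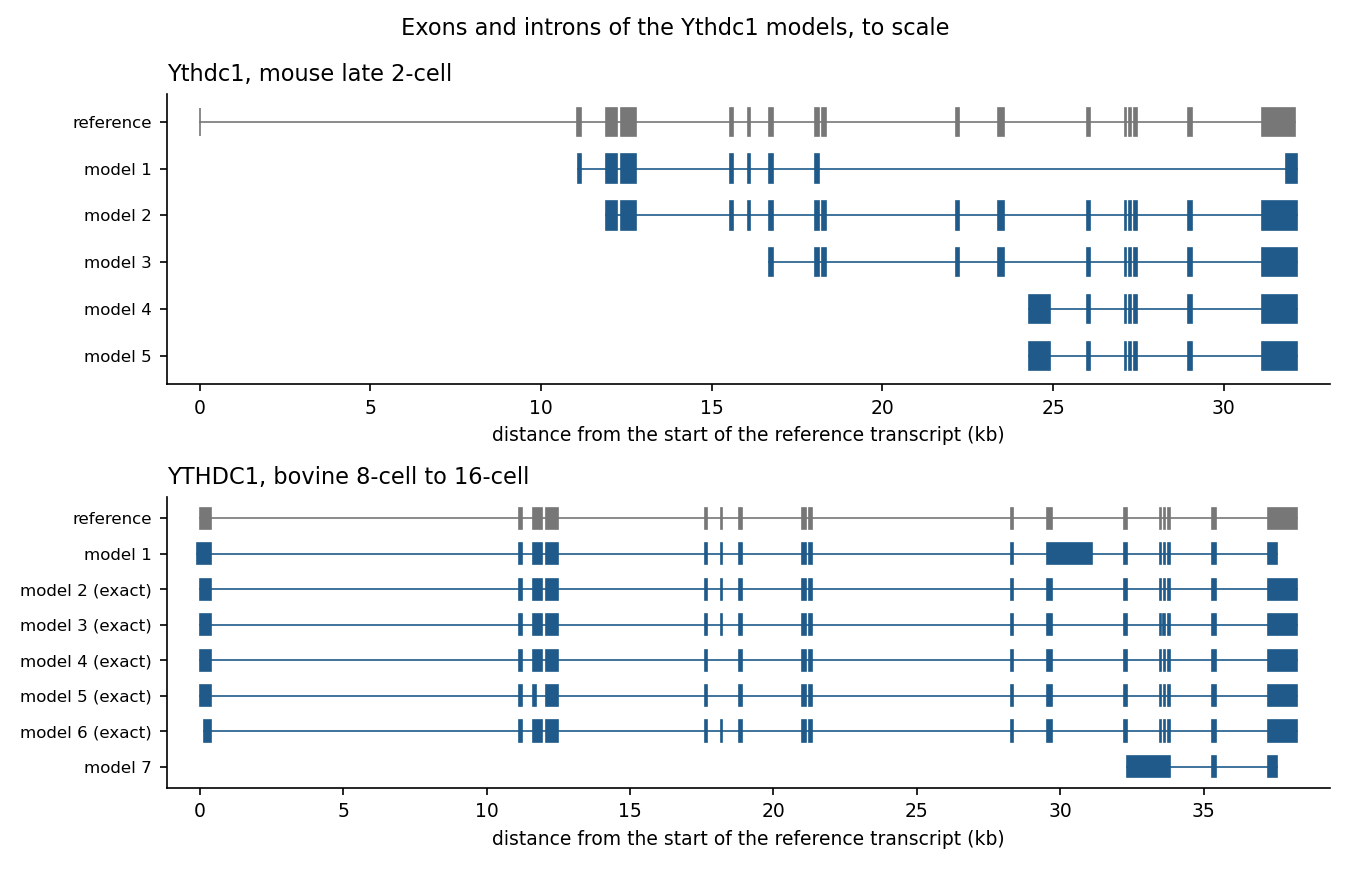
Exons (boxes) and introns (lines) of the Ythdc1 models in mouse (top) and bovine (bottom), to scale, by distance from the start of the reference transcript (kb, grey row; in bovine the exact match with most exons). The 5 mouse models begin 11.4 to 24.6 kb inside the gene when counted from the outermost annotated start, and 6 of 7 bovine models begin within 138 bases of the outermost exact start.

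YTHDC2 had no sense model in either library, while all 30 other genes of the pathway list had one in mouse and 29 did in bovine, where Mettl4 had none.

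IGF2BP2, a reader outside the YTH family and known as a maternal factor in mouse embryos, had short forms that ended inside intron 2 in both species. In mouse, on the minus strand of chromosome 16, 1 of 4 models was an exact match of 16 exons that read 592 codons. The other 3 shared its start and its first 2 exons and then ended inside intron 2, which is 72.1 kb long. Their last exons were 1760, 671 and 207 bp long and began 9.59, 31.4 and 11.1 kb into that intron. Models 2 and 4 ended at the same base, 22149893, and 189 bases of the last exon of model 2 were annotated. Each of the 3 short models held 13.5% of the coding bases, and none of the 3 junctions to their last exons is in GENCODE. Model 2 read 90 codons before a stop, and models 3 and 4 read 79 codons up to bases whose sequence was not used here. In bovine, on chromosome 1, 1 of 3 models likewise ended inside intron 2, which is 127 kb long there, in a last exon of 668 bp that began 62.4 kb into it. Whether the last exons of the short forms correspond between the species was not tested. The remaining bovine models were an exact match of 16 exons and a model with another first exon of 262 bp, 1.17 kb upstream. Of the 14 internal exons 13 had the same length in both species, and exon 6 had 252 bp in mouse and 273 bp in bovine.

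**Figure D5:**
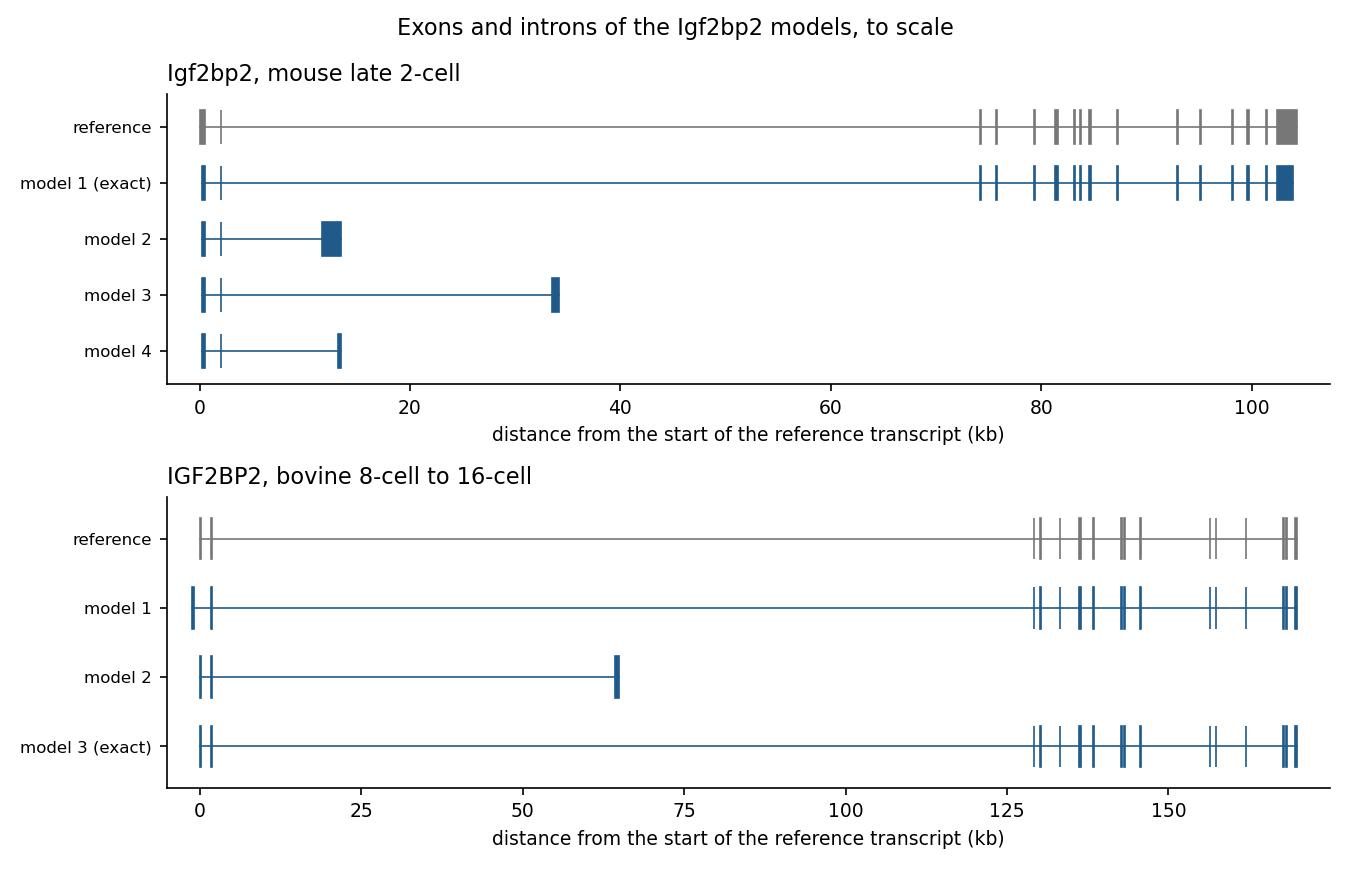
Exons (boxes) and introns (lines) of the Igf2bp2 models in mouse (top) and bovine (bottom), to scale, by distance from the start of the reference transcript (kb, grey row; in bovine the exact match). Mouse models 2 to 4 and bovine model 2 end inside the long intron after exon 2.

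Across the members, the starts fell into 15 groups in mouse and 21 in bovine when starts of a gene within 100 bases counted as one. None of the 28 spliced mouse models had a first exon outside the annotated exons of its strand (0.00%, 0.00% to 12.3%), beside 17.1% of all spliced sense models, by GENCODE. This count depended on the annotation: when the exons of the library's own exact matches stood in for GENCODE, 8 of 28 had such a first exon (28.6%, 13.2% to 48.7%), beside 29.6% of the library. They were all 5 Ythdc1 models, the Ythdf1 model and 2 of Wtap. By that rule, the only one used for bovine, 4 of 47 bovine models had such a first exon (8.51%, 2.37% to 20.4%), beside 35.3% of the library. These were METTL14 models 3 and 4, YTHDF1 model 1 and IGF2BP2 model 1, and 20 of the 47 models were those of YTHDF3. The rule counts the first exons of genes without an exact match as unannotated by its construction, as for YTHDF1. Over genes with an exact match alone, the counts were 2 of 22 in mouse (9.09%), beside 11.1% of the library, and 3 of 46 in bovine (6.52%), beside 11.2%. With the exact matches themselves left out as well, 2 of 9 mouse models (22.2%) stood beside 35.4%, and 3 of 15 bovine models (interval 4.33% to 48.1%) beside 27.9%, and both exact intervals hold the library's share. The whole coding chain of an annotated protein was held by 10 of the 29 mouse models (34.5%, 17.9% to 54.3%), beside 51.2% of all sense models of protein-coding genes. By gene, 6 members had such a model, beside 75.8% of protein-coding genes with a model, and the 6 members with a start codon in a model stood beside 82.6%. Mettl3, Mettl14, Wtap, Ythdf2, Ythdf3 and Igf2bp2 were the 6, and Alkbh5, Ythdf1 and Ythdc1 had neither.

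The other genes of the pathway give the surroundings of these counts. The 30 genes had 96 mouse models, of which 67 were exact, and 110 bovine models, of which 50 were exact, with medians of 2.0 and 3.5 models per gene. All 5 further subunits of the writer complex were assembled in both, with 9 models in mouse and 17 in bovine: Virma, the scaffold, had 2 and 5, Rbm15 had 1 and 3, Rbm15b had 1 and 1, Zc3h13 had 2 and 4, and the ubiquitin ligase gene Cbll1 had 3 and 4. Hnrnpc, whose product binds RNA opened by the mark, had 18 models in mouse and 5 in bovine.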

How the data were processed

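The authors deposited 1 file of StringTie transcript models per library, per the file headers, with exon positions (unit: base pairs), a gene name, the closest reference transcript and a class code. No count, coverage or score is in them, so the depth is unknown and models were counted unweighted. The builds were mm10 and bosTau9, per the submitters' processing notes. The aligner, the assembly settings and any correction of model ends towards the reference were not stated in the sources used here. Starts and ends of models that match a reference transcript may therefore be those of the reference, which was not tested. The members, the pathway list and the markers were chosen with earlier results of these data known. Every member is named, and the genes most like Ythdf3 are the 3 with the smallest summed difference in models. Mouse models were compared with GENCODE M21, in which 80 of 89 member introns were found (89.9%). Of the spliced exact matches to a reference transcript, 10 of 13 member models had an intron chain that is in GENCODE. Over the library this held for 68.4% (11205 of 16388). The reference behind the class codes thus differed from GENCODE, by which mouse coding chains, junctions and first exons were judged. Exon numbers follow the annotated transcript of the longest protein in mouse, and the exact match with most exons in bovine. Reading frames were read from GENCODE transcripts and scanned from the start codon annotated there. Coding regions of the reference transcripts behind the exact matches were not used. No bovine sequence or annotation was used here, so bovine coding regions were not analysed here. RefSeq promoter windows came from GRCm38.p6. Shares carry exact Clopper-Pearson 95% intervals (scipy 1.17.1, Python 3.11.15). Scripts were tested on simulated models. Truncated cDNA, or a model cut by the assembly, would also give starts inside a gene. Which of these applied was not tested.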

Additional observations from a re-analysis of the deposited data

How the results depend on the processing

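With exact matches alone the members had 13 models in mouse and 31 in bovine, in place of 29 and 47. Leaving out YTHDF3, a choice made after seeing the data, left 27 bovine models. With the library's own exact matches as the annotation, 8 mouse models had an unannotated first exon in place of 0, because reference isoforms that were not assembled then count as unannotated. Over genes with an exact match alone, a restriction added after seeing the data, this rule gave 2 in mouse. When at least 50% of the first exon had to be annotated, 7 bovine models were counted in place of 4. Grouping starts within 500 bases gave 14 bovine starts in place of 21. Of the other alternatives, counting every class code brought in Ythdc2 in mouse, with 10 members and 32 models. No paired analysis was possible because each species had 1 library and no value came from a test. The planned bovine coding chains were not run, since no bovine annotation was used here. Unknown read depth limits every count: a missing model or exon does not show a missing transcript.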

Other observations

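Outside the sense models, 3 mouse models carried a member's name on the opposite strand or inside an intron, and no bovine model did. A single-exon model of 1075 bp at 60536846 to 60537920 on chromosome 11 lay on the strand opposite to Alkbh5 and overlapped its exons, 626 bases upstream of the start of the Alkbh5 model with the annotated chain. A single-exon model of 1642 bp lay inside an intron of Ythdc2, on the opposite strand, in the mouse gene without a sense model. The remaining single-exon model, of 240 bp, lay opposite to Igf2bp2 at 22132223 to 22132462 on chromosome 16, inside the intron in which the short Igf2bp2 models end.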
